A study of Mus musculus with 68 samples.

Results

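The T-box genes encode transcription factors that share the DNA-binding T-box domain, and 9 of them were followed here across the pharyngeal arches of the mouse embryo: Tbx1, Tbx2, Tbx3, Tbx4, Tbx5, Tbx15, Tbx18, Tbx20 and Tbx22. They were taken as the rows of the deposited table whose gene identifiers map to these symbols, which gave 9 of the 21948 genes in the table. All 9 passed the filter on low values (at least 1 CPM, the read count as scaled to library size by the authors, in at least 3 libraries). RNA was sequenced from PA1, the arch from which the jaws form, and from PA2, the next arch toward the tail, of single embryos on a CBA/Ca/J x C57BL/10 background. Wildtype embryos and embryos labelled Hoxa2-/- were collected at 4 stages (E9.0 and E9.5, then E10.0 and E10.5), listed in that order throughout. Library numbers by stage were 5, 5, 5 and 3 for wildtype PA1, 4, 4, 5 and 3 for wildtype PA2, and 4, 5, 5 and 3 for each arch of embryos labelled Hoxa2-/-. In all there were 68 libraries, and 33 of the 35 embryos yielded a pair of arches. Arches were dissected by hand, so each library holds all cells of the piece.

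T-box factors recognise short DNA sites through the T-box and act as activators or repressors, often at doses that matter. Tbx1 is known for its role in the endoderm and mesoderm of the pharynx, where it is needed for the arches to be set apart, and it is the main gene of DiGeorge syndrome. Tbx2 and Tbx3 are repressors that respond to BMP signals in many tissues, Tbx4 and Tbx5 are known from limb, lung and heart, and Tbx20 is known from heart muscle. Tbx15, Tbx18 and Tbx22 act mainly in mesenchyme, and Tbx22 is required for the palate. The members lie on chromosomes 3, 5, 9, 11, 16 and X of mm10, and 2 pairs are neighbours: Tbx2 (chr11:85832551-85841948) and Tbx4 (chr11:85886422-85916097) are 44.5 kb apart, and Tbx3 (chr5:119670669-119684724) and Tbx5 (chr5:119832668-119885219) are 147.9 kb apart.

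The libraries held 8912251 to 20619153 recovered reads, so that 3 reads, taken as the floor of detection, were worth 0.140 to 0.328 CPM. Hoxa2, the gene named in the genotype label, was not lower in libraries with that label: PA2 means were 22.3, 40.7, 47.5 and 58.3 CPM in wildtype and 28.7, 60.7, 97.7 and 132 CPM with the label Hoxa2-/-, against at most 0.519 CPM in PA1 groups. The label is therefore given as deposited and is not read as loss of Hoxa2. All 9 markers of neural crest mesenchyme, the main tissue of the arches, were present, with summed levels from 363 to 885 CPM per library. At E9.0 their sums were lower in PA2: 372 to 450 CPM against 593 to 681 CPM in wildtype, where 6 of the 9 were lower (median -0.87), and 363 to 550 against 541 to 654 CPM with the label, ranges that overlap, where 5 were lower and 1 higher (-0.66). From E9.0 to E10.5 in PA2 5 of the 9 rose in wildtype (median 1.36) and 6 with the label (1.39), and 2 fell under each label. Of all genes, 18.7% in wildtype and 24.6% with the label were called between the arches at E9.0. Over stage in PA2 the shares were 36.9% and 30.9%. The part of these markers in the differences of the T-box genes was not tested. The libraries also fell into a division that the labels do not name. Ski stood at 26.3 to 108 CPM in the 24 wildtype libraries of stages other than E10.0, at 9.52 to 15.5 CPM in the 10 wildtype libraries of E10.0 and at 9.28 to 22.8 CPM in all 34 libraries labelled Hoxa2-/-. Outside E10.0 this division and the genotype label cannot be told apart, and wildtype E10.0 was not tested against other wildtype stages. Values of wildtype E10.0 given beside those of other wildtype stages carry the division.

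Promoter sequences of Tbx1 and Tbx22 are shown first, because these genes mark the opposite ends of the results: Tbx1 was the member that was higher in PA2 of every embryo, and Tbx22 the member with the largest difference toward PA1. Windows from RefSeq on GRCm38.p6, running from 250 bases before to 50 bases after a start site, were at hand for 5 of the 9 members. The 250 bases before the start are printed 5′ to 3′ on the strand of the gene, with a T-box site in capitals. The Tbx1 stretch is chr16:18590672-18590921 on the minus strand, and the Tbx22 stretch is chrX:107667714-107667963 on the plus strand. The letters AGGTGT of the T-box site were searched on both strands (ACACCT on the other), and TAATTA, a homeodomain core that reads the same on both strands, was searched as well. AGGTGT was found in 13.7% of all 32851 promoter windows and TAATTA in 5.29%. The Tbx1 window at the gene start held 1 AGGTGT site, starting 76 bases before the start (position -76), and no TAATTA. The Tbx22 window at the gene start held neither set of letters. A further Tbx1 window (chr16:18588850-18589149) and further Tbx22 windows (chrX:107676262-107676561 and chrX:107678765-107679064) at other start sites held neither.
Tbx1: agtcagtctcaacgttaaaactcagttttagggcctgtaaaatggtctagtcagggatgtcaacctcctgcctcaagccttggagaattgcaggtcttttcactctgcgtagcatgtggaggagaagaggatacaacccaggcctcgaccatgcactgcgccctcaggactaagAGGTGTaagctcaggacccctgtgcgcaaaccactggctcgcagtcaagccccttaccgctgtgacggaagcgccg
Tbx22: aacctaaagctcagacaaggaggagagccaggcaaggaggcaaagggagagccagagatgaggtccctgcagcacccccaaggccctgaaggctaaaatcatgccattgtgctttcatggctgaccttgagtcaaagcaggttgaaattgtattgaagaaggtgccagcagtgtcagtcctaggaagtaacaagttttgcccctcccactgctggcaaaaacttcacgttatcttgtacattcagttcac

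Detection ran over a wide range. Tbx1, Tbx2 and Tbx3 exceeded 3 reads in all 68 libraries, with levels of 4.54 to 84.3, 12.1 to 130.9 and 7.40 to 75.1 CPM. Tbx4 exceeded 3 reads in 66 libraries, Tbx20 in 65, Tbx15 in 61 and Tbx18 in 55. Tbx5 did so in 36 libraries and never rose above 3.14 CPM, and Tbx22 in 28, while being listed at 0 in 20. Depth thus limits what can be said of Tbx5, and of Tbx22 before E10.0.

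**Figure D1:**
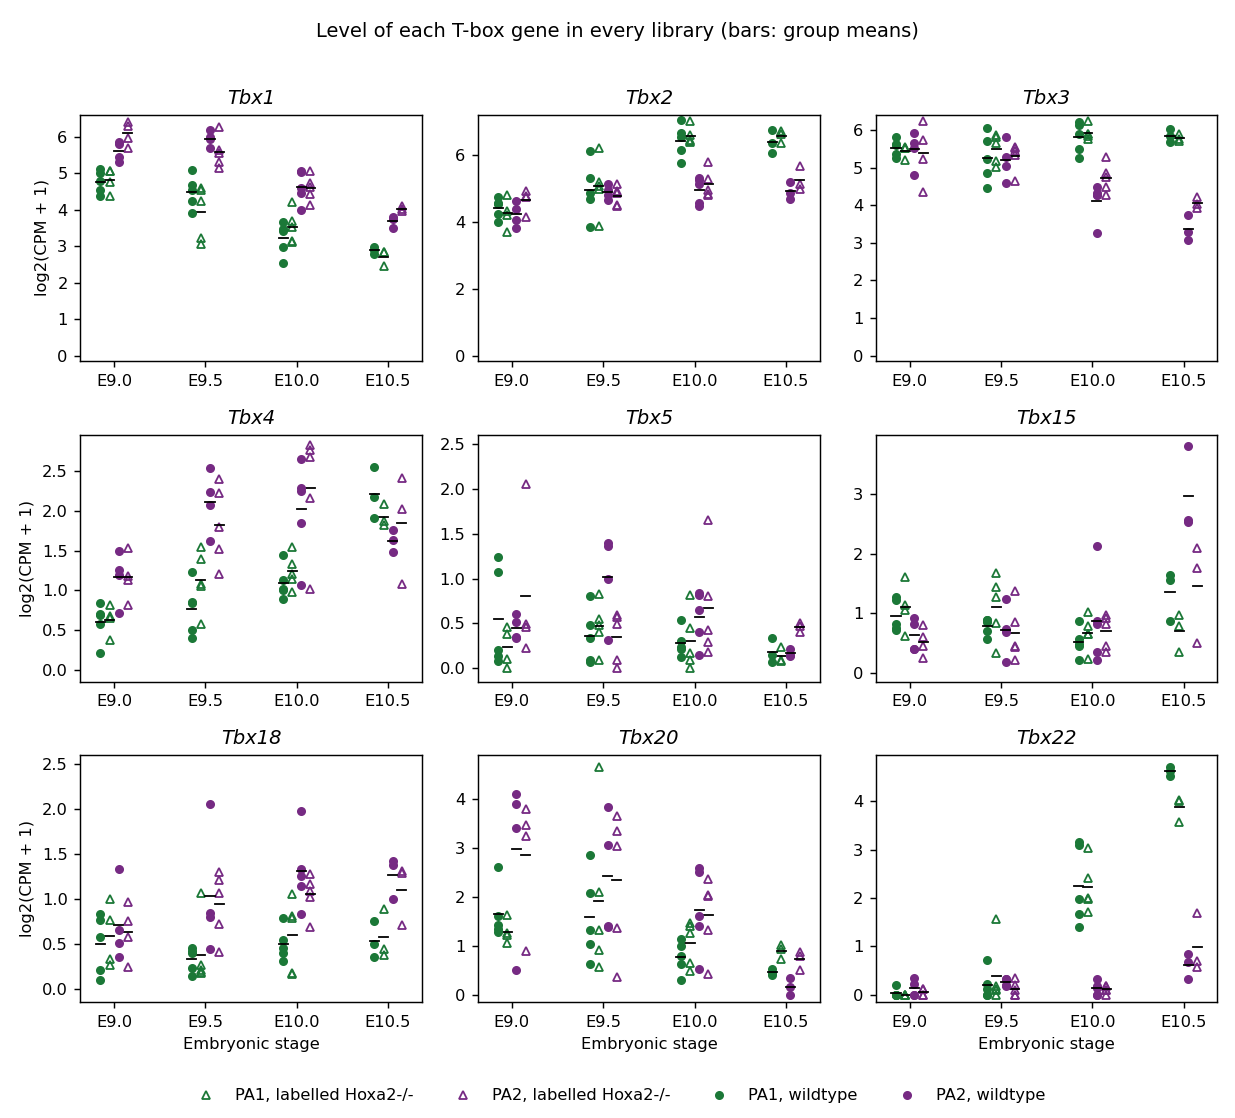
Level of each T-box gene in every library as log2(CPM + 1), by embryonic stage, with 1 panel per gene. Green marks PA1, purple marks PA2, filled circles are wildtype, open triangles are labelled Hoxa2-/-, and short bars are group means. Tbx1 is higher in PA2 and lower at later stages in both arches, Tbx2, Tbx3 and Tbx22 part between the arches from E10.0, and Tbx20 has its highest PA2 values at E9.0 and E9.5.

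PA2 was set against PA1 within each label and stage, which asks how far each member marks an arch. Of 72 tests (9 members, 8 contrasts), 26 passed the threshold (limma on log2(CPM + 1), adjusted p under 0.05 over all 18428 genes kept), 14 of them higher and 12 lower in PA2. In wildtype, 1, 4, 6 and 4 of the 9 members were called at the 4 stages, where 18.7%, 26.3%, 5.94% and 1.52% of all genes tested were called. In embryos labelled Hoxa2-/-, the counts were 1, 1, 5 and 4 members, beside 24.6%, 9.58%, 4.23% and 1.37% of all genes. At E9.0 the members' share (11.1%) was thus not above that of all genes, and at E10.0 and E10.5 it was 44.4% to 66.7% where few genes were called. The members and lists were chosen with earlier results of these data known. Shares of called genes are therefore a description here and no test of a set. Median differences of the 9 members were 0.10, 0.66, 0.36 and -0.29 in wildtype, with medians over all genes between -0.02 and 0.01. These medians hide opposite movements at the later stages. At E10.0 3 members were higher and 3 lower in wildtype PA2 (4.51% and 1.43% of all genes), and 2 and 3 with the label (3.13% and 1.1%). At E10.5 1 was higher and 3 were lower under each label (0.868% and 0.651% of all genes in wildtype, 0.982% and 0.385% with the label).

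**Figure D2:**
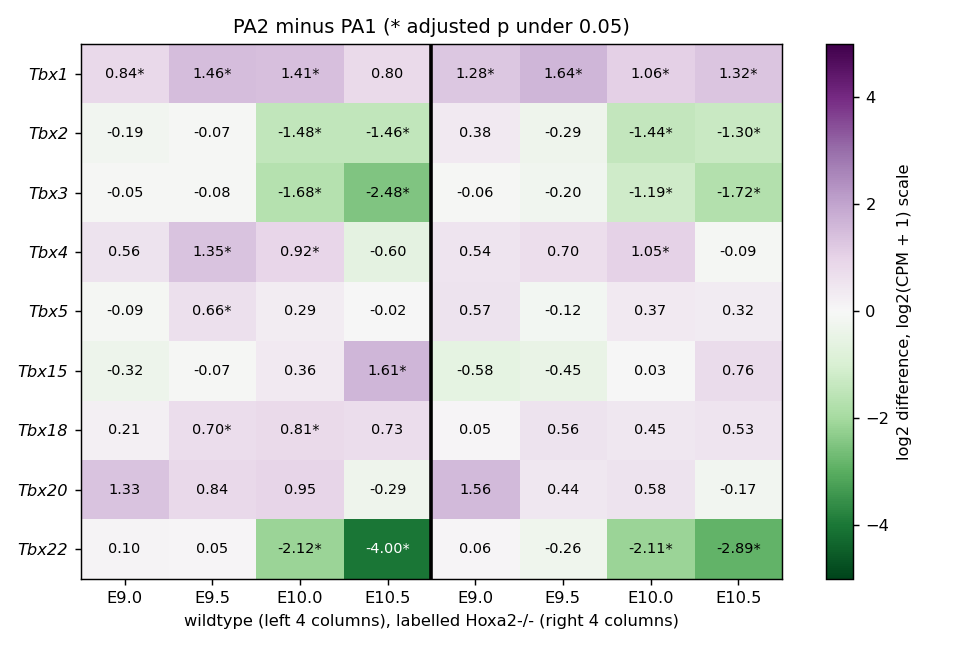
Log2 difference of PA2 minus PA1 for each T-box gene (rows), by stage, with wildtype in the left 4 columns and embryos labelled Hoxa2-/- in the right 4. Colours give the difference on the log2(CPM + 1) scale, purple where PA2 is higher and green where PA1 is higher, and an asterisk marks an adjusted p under 0.05. Tbx1 is positive in all 8 columns, and Tbx2, Tbx3 and Tbx22 are below -1 in the 4 columns of E10.0 and E10.5.

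Tbx1, an activator at the head of pharyngeal patterning (chr16:18580979-18590671, minus strand), was higher in PA2 than in PA1 and fell with stage in both arches. Wildtype PA1 libraries stood at 26.9, 31.6, 22.2, 19.7 and 33.8 CPM at E9.0, and those of PA2 at 55.2, 56.7, 39.1 and 42.9 CPM. At E9.5 wildtype PA1 stood at 17.8, 24.6, 22.3, 33.0 and 14.2 CPM and PA2 at 62.9, 60.0, 72.1 and 50.9 CPM. No PA2 library of these stages overlapped the PA1 range. At E10.0 wildtype PA1 stood at 10.2, 6.99, 4.80, 11.8 and 9.79 CPM and PA2 at 23.4, 31.7, 14.96, 32.7 and 21.2 CPM. At E10.5 the 3 PA1 libraries stood at 5.94, 6.43 and 6.92 CPM and those of PA2 at 10.45, 13.0 and 12.4 CPM, so the arches stayed apart while both levels had dropped. Libraries labelled Hoxa2-/- showed the same order, with 19.7 to 32.8 CPM in PA1 against 50.5 to 84.3 in PA2 at E9.0, and 4.54 to 6.26 against 14.6 to 16.3 CPM at E10.5.

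The log2 differences of Tbx1 between PA2 and PA1 in wildtype were 0.84 (SE 0.26, adjusted p = 0.0143), 1.46 (2.52e-05), 1.41 (2.31e-05) and 0.80 (0.351). With the label Hoxa2-/- they were 1.28 (SE 0.27, adjusted p = 0.000303), 1.64 (9.54e-07), 1.06 (0.0029) and 1.32 (0.00979). The wildtype difference at E10.5 did not pass by limma, and it did with the embryo as a replicate block (adjusted p = 0.034) and with only the compared groups fitted (0.015). The call in wildtype at E9.0 was lost with a term for heart muscle markers (adjusted p = 0.14), without the libraries high in yolk sac markers and without wildtype PA2 E9.0 replicate 2. The call at E10.5 with the label was lost without PA1 replicate 3 or PA2 replicate 1 (adjusted p up to 0.097). Within embryos, PA2 exceeded PA1 in 33 of 33, by 0.33 to 2.31 on the log2 scale with a median of 1.25. Tbx1 is known from pharyngeal endoderm, and most called markers of that tissue were higher in PA2. Of 8 tested, 6, 6, 4 and 3 were higher and 0, 1, 1 and 0 lower in wildtype. With the label 6, 7, 3 and 3 were higher and 0, 1, 1 and 0 lower. Of all genes, 18.7%, 26.3%, 5.94% and 1.52% were called in wildtype and 24.6%, 9.58%, 4.23% and 1.37% with the label. The summed level of the 8 markers was 47.2 to 69.5 CPM in wildtype PA1 and 197 to 276 CPM in wildtype PA2 at E9.0. At E10.5 it was 27.1 to 28.8 against 52.7 to 58.1 CPM. Of 7 markers of cranial mesoderm and muscle progenitors, 2, 4, 5 and 2 were higher in wildtype PA2 and 2, 2, 1 and 1 lower. With the label 2, 4, 5 and 5 were higher and 2, 1, 1 and 1 lower. Their sum was 112 to 146 CPM in wildtype PA1 and 167 to 207 CPM in wildtype PA2 at E9.0. Isl1 alone made up 23.4 to 35.6 CPM of it in PA1 and 86.9 to 153 CPM in PA2. The sum thus does not show the other markers to be higher in PA2. In bulk tissue, fewer cells of a type and less RNA per cell cannot be told apart. The part of endoderm or mesoderm in the Tbx1 difference was not tested.

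From E9.0 to E10.5 Tbx1 fell in all 4 combinations of arch and label. The log2 change was -1.88 in wildtype PA1 (SE 0.28, adjusted p = 1.4e-07), -1.92 in wildtype PA2 (3.24e-07), -2.10 in PA1 labelled Hoxa2-/- (8.92e-08) and -2.06 in PA2 with that label (9.99e-08). The difference of these changes between the arches was -0.04 in wildtype (SE 0.40, adjusted p = 0.983) and 0.04 with the label (SE 0.41, adjusted p = 0.971). The drop in wildtype lay after E9.5, at -1.60 in PA1 and -2.27 in PA2 between E9.5 and E10.5. With the label it passed between E9.5 and E10.0 in PA2 (-0.98, adjusted p = 0.00838), a call that was lost with the heart muscle term (0.08), without the libraries high in yolk sac markers (0.058) and without PA2 E9.5 replicate 1 (0.066). In PA1 with the label it passed between E9.0 and E9.5 (-0.87, adjusted p = 0.0422), a call that edgeR (0.075) and the omission of single libraries (up to 0.24) did not keep.

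A list of 23 genes around Tbx1 (its known regulators, targets and neighbours in signalling) had members called in both directions in each arch contrast. In wildtype, 8, 7, 8 and 3 of the 23 were higher in PA2 and 4, 5, 4 and 3 were lower. Of all genes, 18.7%, 26.3%, 5.94% and 1.52% were called in either direction in these contrasts. With the label, 9, 7, 8 and 7 were higher and 5, 3, 4 and 2 lower, beside 24.6%, 9.58%, 4.23% and 1.37% of all genes. Median differences of the list stayed between 0.02 and 0.38, beside -0.02 to 0.01 over all genes. Isl1, a factor of the second heart field and of pharyngeal mesoderm, was higher in PA2 in 8 of 8 contrasts (131 against 29.3 CPM in wildtype at E9.0, log2 difference 2.11). Tcf21, a factor of head muscle progenitors and of the epicardium, was higher in PA2 in 8 of 8 (16.2 against 2.93 CPM in wildtype at E10.5, 2.13). Cyp26b1, which breaks down retinoic acid, was higher in PA2 in 6 of 8. Over stage 6, 3, 4 and 4 of the 23 rose in wildtype PA1, wildtype PA2, PA1 with the label and PA2 with the label, and 6, 8, 6 and 7 fell, beside 42.5%, 36.9%, 31.2% and 30.9% of all genes called. Tcf21 fell in all 4 combinations of arch and label, and so did Cyp26c1, another retinoic acid enzyme gene (21.0 to 0.668 CPM in wildtype PA1, -3.72). Aldh1a2, which makes retinoic acid, rose in 3 of the 4 (0.362 to 13.4 CPM in wildtype PA1, 3.40), and Gbx2, a homeobox gene, rose in PA1 under both labels (1.44 to 15.3 CPM in wildtype, 2.76).

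**Figure D3:**
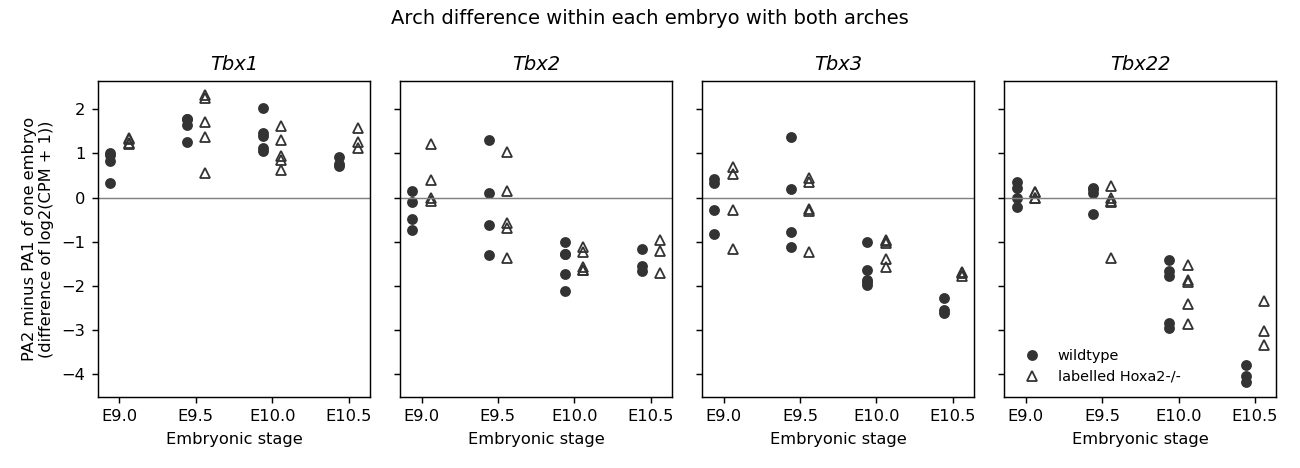
Difference of PA2 minus PA1 within each embryo that gave both arches, on the log2(CPM + 1) scale, by stage, for Tbx1, Tbx2, Tbx3 and Tbx22. Filled circles are wildtype embryos, open triangles are embryos labelled Hoxa2-/-, and the grey line marks no difference. All 33 embryos lie above the line for Tbx1, and all 10 embryos of E10.0 and all 6 of E10.5 lie below it for Tbx2, Tbx3 and Tbx22.

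Tbx2 and Tbx3, a pair of related repressors, were called between the arches at E10.0 and E10.5 and not at E9.0 or E9.5. At E9.5 single embryos differed in either direction, by -1.36 to 1.29 (PA2 minus PA1, log2) for Tbx2 and -1.23 to 1.36 for Tbx3. The lowest value of each gene was that of embryo 4 labelled Hoxa2-/-. Tbx2 in wildtype PA1 stood at 25.9, 22.9, 15.02, 18.2 and 22.4 CPM at E9.0, and in PA2 at 24.1, 13.3, 20.1 and 15.8 CPM. At E10.0 wildtype PA1 stood at 130.9, 70.2, 52.9, 92.6 and 101 CPM, and PA2 at 38.7, 34.3, 21.4, 37.4 and 22.6 CPM. The E9.0 ranges overlapped and those of E10.0 did not. At E10.5 the 3 wildtype PA1 libraries stood at 65.6, 106.9 and 81.0 CPM and those of PA2 at 28.6, 36.0 and 25.1 CPM. With the label Hoxa2-/- PA1 stood at 98.3, 103.9 and 81.3 CPM and PA2 at 49.8, 31.0 and 34.4 CPM at E10.5, again with no overlap.

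Tbx2 was lower in PA2 by a log2 difference of -1.48 at E10.0 (SE 0.28, adjusted p = 0.000123) and -1.46 at E10.5 (SE 0.36, 0.0137) in wildtype. With the label the differences were -1.44 (0.000309) and -1.30 (0.0452). In all 10 embryos of E10.0 and all 6 of E10.5 PA1 exceeded PA2, while at E9.0 PA1 was higher in 5 of 8 and at E9.5 in 5 of 9. With 3 libraries a group, the E10.5 calls rested on single libraries. The wildtype call was lost without PA1 replicate 2 or 3 or PA2 replicate 1 or 3 (adjusted p up to 0.15). The call with the label was lost by edgeR (0.057) and without any of 5 of the 6 libraries (up to 0.23). From E9.0 to E10.5 Tbx2 rose in PA1, by 1.96 in wildtype (SE 0.32, adjusted p = 1.19e-06) and by 2.30 with the label (2.53e-07). In PA2 the change was 0.69 (adjusted p = 0.0964) and 0.62 (0.159). The difference of these changes was -1.27 in wildtype (SE 0.46, adjusted p = 0.124, and 0.018 with only the compared groups fitted) and -1.68 with the label (SE 0.47, 0.0206). The latter was lost without PA1 E9.0 replicate 1, PA1 E10.5 replicate 1 or PA2 E10.5 replicate 2 (up to 0.066). Libraries labelled Hoxa2-/- allow the step to be placed: Tbx2 in PA1 rose between E9.5 and E10.0 (1.50, adjusted p = 0.000408, and 0.055 with only the compared groups fitted). Of the 5 E9.5 libraries 1, that of embryo 4, was already at 73.8 CPM. In that library Bcl11a stood at 16.3 CPM, against 1.06 to 2.99 CPM in the others of its group. PA1 with the label at E10.0 had 15.5 to 29.8 CPM of Bcl11a. Whether embryo 4 was further on than its stage label was not tested.

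Tbx3 differed from Tbx2 in that its PA2 level fell while its PA1 level showed no called change. Wildtype PA1 stood at 47.6, 55.3, 39.9, 37.0 and 48.6 CPM at E9.0, and its E10.5 libraries read 50.4, 64.1 and 56.2 CPM. Wildtype PA2 stood at 59.8, 45.1, 49.8 and 27.1 CPM at E9.0, and its E10.5 libraries read 7.40, 12.5 and 8.76 CPM. The PA2 libraries of E10.5 all lay below every PA1 library of the series, whose lowest was 21.1 CPM. With the label, PA1 stood at 52.7, 58.1 and 51.1 CPM and PA2 at 15.3, 17.5 and 14.2 CPM at E10.5. The arch difference was -1.68 at E10.0 (SE 0.26, adjusted p = 2.48e-06) and -2.48 at E10.5 (SE 0.33, 1.96e-07) in wildtype, and -1.19 (0.00157) and -1.72 (0.000651) with the label. All 10 embryos of E10.0 and all 6 of E10.5 had more Tbx3 in PA1.

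From E9.0 to E10.5 Tbx3 fell in PA2 by 2.11 in wildtype (SE 0.31, adjusted p = 1.68e-07), and with the label the change was -1.32 (SE 0.31, 0.00063). The latter call was lost with the heart muscle term (log2 change -0.65, adjusted p = 0.19). In PA1 the change was 0.32 (adjusted p = 0.405) and 0.34 (0.441). The stage change thus differed between the arches, by -2.43 in wildtype (SE 0.43, adjusted p = 0.000131) and -1.66 with the label (SE 0.44, 0.0134, and 0.06 with only the compared groups fitted). Tbx3os1, an antisense gene whose exons overlap those of Tbx3 by 115 bases, was present at a much lower level. It was lower in PA2 at E10.0 and E10.5 under both labels (0.106 against 1.54 CPM in wildtype at E10.5, log2 difference -1.20, adjusted p = 3.23e-07). From E9.0 to E10.5 Tbx3os1 rose in PA1, unlike Tbx3, by 1.02 in wildtype (adjusted p = 8.22e-08) and 0.84 with the label (2.11e-05). It was not called in PA2 (-0.22 and -0.26, adjusted p = 0.263 and 0.203). Wildtype PA2 stood at 0.0541 to 0.670 CPM at E9.0 and 0 to 0.263 CPM at E10.5. With the label PA2 stood at 0.170 to 1.02 and 0 to 0.305 CPM. So near the level of 3 reads a fall like that of Tbx3 could not show on the log2(CPM + 1) scale. The strand used in counting is not given in the sources used here, so reads of Tbx3 and Tbx3os1 in that overlap cannot be told apart.

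**Figure D4:**
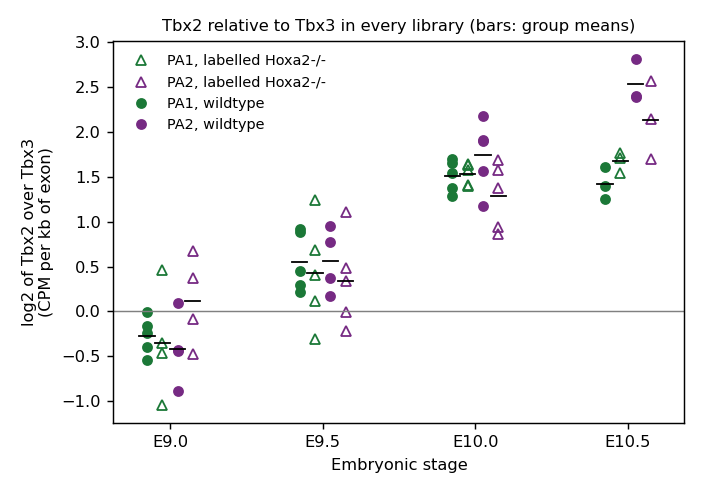
Log2 ratio of Tbx2 over Tbx3 in every library, each taken as CPM per kilobase of exon, by stage, with colours for the arch, filled circles for wildtype, open triangles for the label Hoxa2-/- and short bars for group means. Group means lie between -0.42 and 0.12 at E9.0 and between 1.42 and 2.53 at E10.5.

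The balance of the pair is given as a description, in which wildtype E10.0 carries the division named above. Per kilobase of exon, the log2 ratio of Tbx2 over Tbx3 in wildtype PA1 had group means of -0.27, 0.55, 1.51 and 1.42, and in wildtype PA2 of -0.42, 0.57, 1.75 and 2.53. With the label Hoxa2-/- the means were -0.35, 0.43, 1.53 and 1.67 in PA1 and 0.12, 0.34, 1.29 and 2.13 in PA2. Tbx2 exceeded Tbx3 in all 10 libraries of wildtype PA1 and PA2 at E10.0 and in all 6 at E10.5, and in 1 of 9 at E9.0. From E9.0 to E10.5 the mean ratio was thus higher in both arches under both labels. No test of the ratio was made.

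Genes of BMP signalling, which acts upstream of Tbx2 and Tbx3 in many tissues, were read from a list of 14, of which 13 were tested. In wildtype 3, 2, 0 and 0 were higher in PA2 and 1, 0, 4 and 2 were lower. With the label 4, 1, 0 and 0 were higher and 0, 2, 2 and 3 lower. All genes were called in either direction at 18.7%, 26.3%, 5.94% and 1.52% in wildtype and 24.6%, 9.58%, 4.23% and 1.37% with the label, so that 2 of 13 in wildtype at E9.5 lies below the share of all genes. Over the same contrasts the list medians went from 0.20 at E9.0 to -0.29 at E10.5 in wildtype. Msx1, a homeobox target of BMP, was lower in PA2 in 6 of 8 contrasts (125 against 365 CPM in wildtype at E10.5, -1.54). Msx2, another such target, was lower in 5 of 8 (20.7 against 89.0 CPM in the same groups, -2.10). Bmp4, a ligand, was higher in PA2 at E9.0 under both labels (46.8 against 21.1 CPM in wildtype, log2 difference 1.10, and 72.7 against 24.9 CPM with the label, 1.46). Over stage 5, 2, 5 and 3 of the 13 rose in wildtype PA1, wildtype PA2, PA1 with the label and PA2 with the label. In the same order 4, 8, 5 and 9 fell, beside 42.5%, 36.9%, 31.2% and 30.9% of all genes called. The list medians were 0.14, -0.95, 0.16 and -0.94. Msx1 rose and Bmp2, another ligand, fell in all 4 combinations of arch and label, Msx1 from 92.6 to 365 CPM in wildtype PA1.

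Tbx22, the palate gene on the X chromosome (chrX:107667964-107688978), was the member with the largest change. It was near the floor at E9.0: 4 of 5 wildtype PA1 libraries and all 4 of PA1 labelled Hoxa2-/- were listed at 0. At E10.0 wildtype PA1 stood at 7.91, 1.65, 7.52, 2.92 and 2.16 CPM, and PA1 with the label at 2.27, 7.22, 4.32, 3.01 and 2.92 CPM. PA2 stayed at or below 0.253 CPM in all 10 libraries of that stage, which is about the level of 3 reads. At E10.5 PA1 stood at 21.8, 23.8 and 25.2 CPM in wildtype and at 15.2, 10.9 and 15.3 CPM with the label. PA2 stood at 0.259, 0.790 and 0.610 CPM in wildtype and at 2.21, 0.480 and 0.631 CPM with the label. The ranges of the arches did not overlap at E10.0 or E10.5.

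The arch difference of Tbx22 was -2.12 at E10.0 (SE 0.23, adjusted p = 1.98e-10) and -4.00 at E10.5 (SE 0.30, 5.18e-16) in wildtype, and -2.11 (3.23e-10) and -2.89 (1.68e-10) with the label. In all 10 embryos of E10.0 and all 6 of E10.5 PA1 was higher. In PA1 it rose from E9.0 to E10.5, by 4.58 in wildtype (adjusted p = 1.18e-20) and 3.87 with the label (3.48e-16) on the log2(CPM + 1) scale. As a ratio the wildtype PA1 mean of 23.6 CPM at E10.5 was 724 times the level of E9.0, which rests on 3 reads over the group (95% counting interval 248 to 3510). With the label, where no library had a read at E9.0, the level of 13.8 CPM was at least 249-fold higher than the floor of 3 reads over the group. Such intervals cover counting error only. In PA2 the change was 0.48 in wildtype (adjusted p = 0.172, and 0.039 with a pseudocount of 0.25), and 0.93 with the label (0.00752). The latter was lost without PA2 E10.5 replicate 1, the library at 2.21 CPM (0.17), with the heart muscle term (0.11) and with a pseudocount of 5 (0.11). The stage change differed between the arches by -4.10 in wildtype (SE 0.38, adjusted p = 1.21e-11) and -2.95 with the label (SE 0.39, 1.01e-06). The latter did not pass by edgeR (0.28), where a group has no reads. With the label the rise in PA1 passed in both steps after E9.5, at 1.84 to E10.0 (adjusted p = 1.91e-07) and 1.65 from there to E10.5 (0.000548). The second of these was lost by edgeR (0.095) and with a pseudocount of 0.25 (0.059).

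Tbx15 and Tbx18, both factors of mesenchyme, were low. Tbx15 stayed at or below 2.178 CPM in all PA1 libraries. In wildtype PA2 at E10.5 it stood at 4.76, 13.0 and 4.88 CPM, against 0.817, 2.11 and 1.93 CPM in PA1. The log2 difference was 1.61 (SE 0.35, adjusted p = 0.00234). With the label Tbx15 averaged 2.03 CPM in PA2 and 0.651 CPM in PA1 at E10.5 and was not called between the arches. In PA2 it rose from E9.0 to E10.5, by 2.33 in wildtype (4.89e-08) and 0.93 with the label (0.0221), and the change in PA1 was 0.40 and -0.40 (adjusted p = 0.315 and 0.366). The stage change differed between the arches by 1.93 in wildtype (SE 0.45, adjusted p = 0.00527) and by 1.33 with the label (0.0593, and 0.03 with the replicate block). Wildtype PA2 replicate 2, at 13.0 CPM, weighed on these values. Without it the wildtype arch difference was 1.19 (adjusted p = 0.11) and the difference of stage changes 1.51 (0.057). The wildtype arch call was also lost without PA1 replicate 1 (0.059), with a pseudocount of 0.25 (0.068) and with only the compared groups fitted (0.066). The PA2 stage call with the label was lost with only the compared groups fitted (0.11), without the libraries high in yolk sac markers (0.081) and without PA2 E9.0 replicate 3 or PA2 E10.5 replicate 1 or 2 (up to 0.23).

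Tbx18 never exceeded 3.16 CPM. It was higher in wildtype PA2 at E9.5 (0.794, 0.744, 0.356 and 3.16 CPM, against 0.104 to 0.371 in PA1, log2 difference 0.70, SE 0.23, adjusted p = 0.0199). It was also higher there at E10.0 (1.39, 2.94, 1.20, 1.53 and 0.783 CPM, against 0.236 to 0.721 in PA1, 0.81, SE 0.22, 0.0131). The difference at E9.5 was 0.37 without PA2 replicate 5 (adjusted p = 0.28), and that at E10.0 was 0.65 without PA2 replicate 2 (0.089). The first was also lost without PA1 replicate 1 (0.053), with the heart muscle term (0.051) and with only the compared groups fitted (0.083). With the label Tbx18 was not called between the arches at any stage. PA2 exceeded PA1 in 14 of 16 wildtype embryos (median difference 0.69) and in 13 of 17 with the label (0.32). Over both labels PA2 exceeded PA1 in 27 of 33 embryos, with a median difference of 0.50.

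A list of 13 genes of the mesenchyme in which these 3 members act had, in wildtype, 2, 2, 2 and 2 genes higher in PA2 and 4, 1, 5 and 5 lower, beside 18.7%, 26.3%, 5.94% and 1.52% of all genes called in either direction. With the label 3, 2, 2 and 2 were higher and 4, 1, 4 and 5 lower, beside 24.6%, 9.58%, 4.23% and 1.37%. In wildtype at E9.5 the 3 of 13 called lie below the share of all genes. Alx4, a homeobox gene of craniofacial mesenchyme, was lower in PA2 at E10.0 and E10.5 under both labels (4.37 against 46.3 CPM in wildtype at E10.5, -3.12) and higher at E9.5 in wildtype. Pax9, a paired-box gene that also marks pharyngeal endoderm, was higher in PA2 in 8 of 8 contrasts (7.94 against 2.30 CPM in wildtype at E10.5, 1.43).

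Tbx4 and Tbx5, a related pair best known from hind limb and forelimb, were low in the arches. Of limb bud markers, Hoxa11 averaged under 1 CPM, and Hoxa13, Hoxd11, Hoxd12 and Hoxd13 were not found among the deposited genes. Tbx4 in wildtype PA1 stood at 1.35, 0.799, 0.410, 0.802 and 0.318 CPM at E9.5, and in PA2 at 3.22, 2.07, 3.71 and 4.82 CPM, without overlap. The difference was 1.35 (SE 0.27, adjusted p = 0.000157). At E10.0 PA2 was again higher, by 0.92 in wildtype (0.0137) and 1.05 with the label (0.00528). These E10.0 calls were lost with the heart muscle term (0.2 and 0.059), that of wildtype without PA2 replicate 1 (0.08) and that of the label without the libraries high in yolk sac markers (0.064). By E10.5 the 3 wildtype PA1 libraries stood at 2.78, 4.90 and 3.54 CPM and those of PA2 at 2.38, 1.79 and 2.11 CPM (difference -0.60, adjusted p = 0.786). Tbx4 rose in PA1 from E9.0 to E10.5, by 1.62 in wildtype (SE 0.29, adjusted p = 6.9e-06) and 1.30 with the label (0.000639). In wildtype PA2 it rose between E9.0 and E9.5 (0.95, adjusted p = 0.0281), a call that 4 of the 8 omissions of 1 library ended (up to 0.15), as did a fit of only the compared groups (0.05). The change in PA2 from E9.0 to E10.5 was 0.46 (adjusted p = 0.24) and 0.68 (0.0818), and with the heart muscle term it was 1.24 (0.0082) and 1.39 (0.0029). The difference of the stage changes between the arches was -1.16 in wildtype (0.118, and 0.048 by edgeR) and -0.62 with the label (0.409).

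Tbx5 was called once between the arches, in wildtype at E9.5 (1.63, 0.248, 1.58 and 0.985 CPM in PA2 against 0.0520, 0.741, 0.0683, 0.401 and 0.265 CPM in PA1). The difference was 0.66 (SE 0.25, adjusted p = 0.0424), and 6 of the 9 omissions of 1 library ended the call (up to 0.16), as did the heart muscle term (0.41), a pseudocount of 0.25 (0.052) and a fit of only the compared groups (0.064). It was also lower in wildtype PA2 at E10.5 than at E9.5 (-0.85, adjusted p = 0.0157), a call that the heart muscle term (0.5) and the omission of PA2 E9.5 replicate 1 or 3 (0.061) ended. Elsewhere Tbx5 lay mostly near the level of 3 reads. The neighbours on chromosome 5 thus had unlike levels, with Tbx3 at 7.40 CPM or more in every library and Tbx5 at 3.14 CPM or less.

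Tbx20, known from heart muscle and its progenitors (chr9:24718138-24774303), was high in PA2 at the early stages in some libraries and not in others. Wildtype PA2 stood at 13.9, 0.428, 16.2 and 9.53 CPM at E9.0 and at 1.59, 1.65, 13.3 and 7.31 CPM at E9.5. PA2 labelled Hoxa2-/- stood at 12.9, 8.38, 0.852 and 10.1 CPM at E9.0 and at 1.59, 9.07, 11.6, 0.287 and 7.15 CPM at E9.5. Each of these 4 groups thus held both low and high libraries. At E10.5 wildtype PA2 stood at 0, 0.263 and 0.111 CPM and PA2 with the label at 0.839, 0.720 and 0.421 CPM. Between the arches Tbx20 passed in none of the 8 contrasts by limma: the difference at E9.0 was 1.33 in wildtype (SE 0.62, adjusted p = 0.129) and 1.56 with the label (SE 0.65, 0.0713). At an unadjusted p under 0.05 these 2 contrasts passed, and edgeR called both (adjusted p = 0.039 and 0.035). The one with the label also passed with the replicate block (0.039). Without wildtype PA2 replicate 2 the difference was 2.15 (0.011), and without PA2 replicate 3 of the label it was 2.21 (0.012). From E9.0 to E10.5 it fell in PA2, by 2.81 in wildtype (adjusted p = 0.00113) and by 2.12 with the label (0.0162), the latter being lost without PA2 E9.0 replicate 1 or PA2 E10.5 replicate 3 (up to 0.057).

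Markers of heart muscle moved with Tbx20. Of 14 such markers 12 were tested, and 12, 5 and 1 of them were higher in wildtype PA2 at E9.0, E9.5 and E10.0, and 11 and 5 with the label at E9.0 and E9.5. Of all genes, 18.7%, 26.3% and 5.94% were called in either direction in these wildtype contrasts, and 24.6% and 9.58% with the label. The 1 of 12 at E10.0 is thus near the share of all genes. The summed level of the markers at E9.0 was 21.8 to 53.1 CPM in wildtype PA1 and 67.7 to 1382 CPM in wildtype PA2, and at E10.5 it was 8.28 to 9.91 and 8.95 to 11.2 CPM. Myl2 and Tnni3 averaged under 1 CPM, and Nppa and Nppb were not found among the deposited genes. The library of wildtype PA2 at E9.0 with 0.428 CPM of Tbx20 (replicate 2) had a heart muscle sum of 67.7 CPM and a red blood cell sum of 74780 CPM, and the other 3 had heart muscle sums of 1276 to 1382 CPM. The library with the label at 0.852 CPM (replicate 3) had a sum of 132.5 CPM. With the heart muscle sum as a term in the fit, the wildtype arch difference of Tbx20 at E9.0 turned to -1.33 (adjusted p = 0.022) and the PA2 stage changes to 0.91 (0.19) and 1.29 (0.051). In 2 PA1 libraries Tbx20 stood far above the rest of its group beside a heart muscle sum that was low against those of PA2 at E9.0. Wildtype PA1 E9.0 replicate 4 had 5.11 CPM of Tbx20 (1.41 to 2.05 CPM in the other 4), a heart muscle sum of 53.1 CPM, the highest of its group, and 18.1 CPM of Upk3b, a marker of mesothelium and epicardium. PA1 labelled Hoxa2-/- E9.5 replicate 3 had the highest Tbx20 level of the series, 24.2 CPM, with a heart muscle sum of 47.0 CPM, and it held 57.6 CPM of Upk3b and 2507 CPM of Postn.

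**Figure D5:**
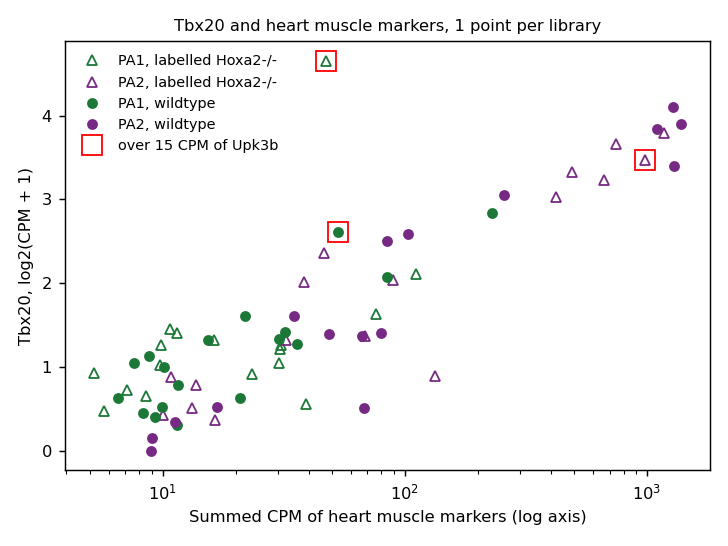
Tbx20 as log2(CPM + 1) against the summed CPM of heart muscle markers on a log axis, with 1 point per library; green is PA1, purple is PA2, filled circles are wildtype and open triangles are labelled Hoxa2-/-. Red squares mark the 3 libraries with over 15 CPM of Upk3b. The 10 libraries with the highest sums are all from PA2 and have 7.15 to 16.2 CPM of Tbx20, and the marked PA1 library at the top lies apart with a sum of 47.0 CPM.

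The list of 14 partners of T-box factors (GATA, NKX, SALL and MEF2 factors, co-repressors and others) had members called at most stages. In wildtype 6, 5 and 3 genes were higher in PA2 at E9.0, E9.5 and E10.0, and 3 were lower at E9.0 and 1 at E10.5, beside 18.7%, 26.3%, 5.94% and 1.52% of all genes called in either direction. With the label 5, 1 and 1 were higher at those stages and 2 lower at E9.0, beside 24.6%, 9.58%, 4.23% and 1.37%. With the label at E9.5 and E10.0, 1 of 14 is thus near the share of all genes. Gata5, a GATA factor of heart and endoderm, was higher in PA2 in 5 of 8 contrasts (46.4 against 6.68 CPM in wildtype at E9.0, 2.58). Over stage 9, 9, 8 and 8 of the 14 fell in wildtype PA1, wildtype PA2, PA1 with the label and PA2 with the label, and 3, 2, 2 and 1 rose, beside 42.5%, 36.9%, 31.2% and 30.9% of all genes called. Gata5, Gata4, Mef2c and Sall1 fell in all 4, Sall1 from 35.0 to 4.78 CPM in wildtype PA1. The heart muscle sums given above moved with these GATA genes in PA2, and their part was not tested.

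Counted over the members, the test of E10.5 against E9.0 passed in 4, 4, 4 and 5 of 9 in the same 4 combinations, 17 of 36 tests. Beside the 42.5%, 36.9%, 31.2% and 30.9% of all genes called, the shares of 44.4% to 55.6% are not far above the background. Steps between neighbouring stages passed in 15 of 90 tests. In wildtype PA1 0 members were called between E9.0 and E9.5 (6.73% of all genes) and 4 between E9.5 and E10.5 (40.9%), and in wildtype PA2 1 (6.68%) and 5 (34.3%). With the label, the counts for the 3 steps were 1, 2 and 1 in PA1 (2.85%, 4.4% and 0.298% of all genes) and 0, 1 and 0 in PA2 (16.9%, 4.57% and 0.239%). Over all 90 tests 27 had an unadjusted p under 0.05, and edgeR called 13. The difference of the stage change between the arches, a comparison added after the data were seen, passed in 6 of 18 tests: 3 members in wildtype (Tbx3, Tbx15 and Tbx22) and 3 with the label (Tbx2, Tbx3 and Tbx22), beside 3.35% and 7.33% of all genes. Of the list genes tested in the same way, Fgf8, a signal of arch epithelium, differed by -2.50 and -2.39, and Msx2 by -1.89 and -1.59, in wildtype and with the label. Both moved toward PA1 with stage, as did Tbx3 and Tbx22.

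The label Hoxa2-/- was set against wildtype within each arch and stage, which asks whether members depend on the genotype as labelled. In PA2 1 of 36 tests passed by limma (4 at an unadjusted p under 0.05, 1 by edgeR), beside 14%, 4.48%, 0.0814% and 10.3% of all genes called at the 4 stages. The gene was Tbx15 at E10.5, which stood at 3.28, 2.40 and 0.421 CPM with the label and at 4.76, 13.0 and 4.88 CPM in wildtype, without overlap. Its difference was -1.51 (SE 0.35, adjusted p = 0.0023). The call was lost without wildtype replicate 2 or replicate 3 with the label (up to 0.076) and with only the compared groups fitted (0.057). At this stage the label coincides with the division of the libraries described above, so the pair cannot be told apart. E10.0 is the stage without that division, and there the nearest member was Tbx3, at 18.9, 21.2, 8.63, 18.2 and 18.2 CPM in wildtype and 38.1, 18.4, 21.5, 27.8 and 26.0 CPM with the label. These ranges overlap, and the difference was 0.61 (SE 0.26, unadjusted p = 0.0195, adjusted p = 0.577). At E10.5 Tbx3 stood at 0.69 (SE 0.33, adjusted p = 0.189, and 0.038 with only the compared groups fitted), although the 3 libraries with the label (14.2 to 17.5 CPM) lay above the 3 of wildtype (7.40 to 12.5 CPM).

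In PA1 0 of 36 tests passed by limma and 0 by edgeR, with 2 at an unadjusted p under 0.05, beside 2.08%, 23.6%, 0% and 3.05% of all genes called. The 2 were Tbx1 at E9.5 (15.9 against 22.4 CPM, -0.55, adjusted p = 0.0881) and Tbx22 at E10.5 (13.8 against 23.6 CPM, -0.75, 0.172). Tbx22 in PA1 at E10.5 did not overlap between labels, with 10.9 to 15.3 CPM against 21.8 to 25.2 CPM, and it passed with a pseudocount of 5 (0.0044) and with only the compared groups fitted (0.026). The effect of the label did not differ between the arches in any of 36 tests by limma or edgeR (0 calls each, 2 at an unadjusted p under 0.05), beside 0%, 0.0109%, 0.0163% and 0.038% of all genes. With SEs of the size given, these tests do not show that the labels are alike.

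The order of the members by level, as CPM per kilobase of exon, was set out at E9.0 and E10.5. In wildtype PA1 at E9.0 Tbx1 (7.63 ± 1.71, SD, n = 5), Tbx3 (6.89 ± 1.10) and Tbx2 (5.76 ± 1.18) led with overlapping ranges, and the other 6 were at 0.257 or less. In wildtype PA1 at E10.5 the order was Tbx2 (23.3 ± 5.76, n = 3), Tbx3 (8.59 ± 1.04), Tbx22 (4.26 ± 0.31), Tbx1 (1.83 ± 0.14) and Tbx4 (1.10 ± 0.32), and none of these neighbours overlapped. In wildtype PA2 at E9.0 Tbx1 stood alone at 13.8 ± 2.50 (n = 4), above Tbx3 (6.86 ± 2.07) and Tbx2 (5.05 ± 1.31), which overlapped. In wildtype PA2 at E10.5 Tbx2 led at 8.24 ± 1.55 (n = 3), followed by Tbx1 (3.40 ± 0.38), Tbx15 (2.01 ± 1.26) and Tbx3 (1.44 ± 0.40), of which Tbx15 overlapped both neighbours. The gene with the highest mean was thus Tbx1 at E9.0 and Tbx2 at E10.5 in both arches. With the label Hoxa2-/- the same genes led: Tbx1 at E9.0 in PA1 (7.88) and PA2 (19.5), and Tbx2 at E10.5 in PA1 (26.1) and PA2 (10.6).

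The genes whose 16 group means ran most like those of each member were taken from 11350 genes by Pearson correlation, as a description; the groups share arches, stages and library sets. Tbx1 was most like Slit1 (r = 0.980), Acsl1 (0.979) and Syn2 (0.977). Tbx2 was most like Lhx6 (0.967) and Lhx8 (0.948), LIM homeobox genes of PA1 mesenchyme, and Mettl17 (0.948). Tbx3 was most like Dok5 (0.945), Msx2 (0.929) and Pcdh7 (0.904). For Tbx22 AI606473 (0.975) and Alx4 (0.944) were among the nearest, and for Tbx20 Alpk3 (0.963), Popdc2 (0.962) and Ecm1 (0.960), of which Alpk3 and Popdc2 are known from heart muscle. Tbx18 was most like Gpm6b (0.953), Lypd6b (0.925) and Cxcl12 (0.921), and Tbx4 like Zfp579 (0.937), Zdhhc1 (0.935) and Npr2 (0.914). The highest value was 0.875 for Tbx5 (B3gat3) and 0.843 for Tbx15 (Tnnt1), below those of the other members given here. Of the other T-box genes in the mouse list, 2 had enough reads to be tested, T and Mga. Mga was lower in PA2 at E9.0 with the label (-0.65, adjusted p = 0.00229), where 24.6% of all genes were called. In that group replicate 3 stood at 17.6 CPM of Mga, against 33.7 to 50.6 CPM in the others. The same library held 414.8 CPM of yolk sac markers.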

How the data were processed

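RNA from PA1 and PA2 of single embryos was sequenced in 68 libraries. Per the submitters' processing notes, bcl2fastq 2.18, TopHat2 2.1.1 and R 3.3.2 were used with mm10, and per the labels' protocols, cDNA was made with SMART-seq v4 and libraries with Nextera XT from polyadenylated RNA. Replicates are separate embryos of a group. The counter and strand setting are not given in the sources used here. The deposited values, a signal scaled to library size by the authors with sums of 9.263e+05 to 1.052e+06 per library, are called CPM. 100% of them were whole multiples of 1 read (tolerance 0.1 read, largest distance 7.869e-05), so reads could be recovered, and edgeR on them called 30 member tests between the arches against 26 by limma. The tests planned for CPM values were kept.

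Gene names came from GENCODE M21 by identifier, with 21921 of 21948 matched. Values were analysed as log2(CPM + 1) by limma 3.58.1 in R 4.3.3 (trended variance, two-sided, 1 mean per group over all 68 libraries, Benjamini-Hochberg over 18428 genes with at least 1 CPM in at least 3 libraries, threshold 0.05). Fold changes on this scale understate the change of low genes. Adjusted p-values without a tool named are from limma. The script was tested on simulated data. Replicate libraries differed by more than sampling noise (chi-square per degree of freedom 5.91 to 96.9 over 116 pairs).

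The members and lists were chosen with earlier results of these data known. Named are all 9 members, up to 4 genes per list with the largest mean absolute difference among those called in a comparison, markers needed to check a tissue, and the 3 genes most like each member. Some genes under this rule are not reported here. PA1 and PA2 libraries of the same number come from the same embryo per the series text, and their deviations from group means had a median correlation of 0.35 over 33 pairs (30 above 0.1), against -0.12 over 116 other pairs. Alternatives were other pseudocounts (0.25 and 5), filters, median-of-ratios scaling, only the compared groups, a sex term, a heart muscle term, edgeR 4.0.16, the embryo as a replicate block, and each library left out. Leaving out 7 libraries with over 20 CPM of yolk sac markers, 3 with over 15 CPM of Upk3b, or embryo 4 labelled Hoxa2-/- at E9.5 was chosen after seeing the data.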

Additional observations from a re-analysis of the deposited data

Results flagged for a closer look

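Among 108 sets of 4 or 5 libraries (9 members by group), 13 had 1 library far from the others by Dixon's ratio. That rule flags about 1 in 20 sets by chance if values are normally distributed. Sets near the floor of detection are not, so the count of 13 cannot be set against that rate. Several of the 13 lay at E9.5 or earlier in PA1. Tbx20 stood at 5.11 CPM in wildtype PA1 E9.0 replicate 4 (others 1.41 to 2.05) and at 24.2 CPM in PA1 labelled Hoxa2-/- E9.5 replicate 3 (others 0.474 to 3.3), and both libraries had over 15 CPM of Upk3b. Tbx22 stood at 0.157 CPM in wildtype PA1 E9.0 replicate 1 (others 0), at 0.635 CPM in wildtype PA1 E9.5 replicate 5 (others up to 0.171), and at 1.96 CPM in PA1 labelled Hoxa2-/- E9.5 replicate 4 (others up to 0.141). Tbx3 was low in PA1 labelled Hoxa2-/- E9.0 replicate 2, at 35.7 CPM (others 44.6 to 45.6), and in wildtype PA2 E10.0 replicate 3, at 8.63 CPM (others 18.2 to 21.2), a library with 99.9 CPM of yolk sac markers. In PA1 labelled Hoxa2-/- E10.0, replicate 1 was highest for both Tbx2, at 129 CPM (others 83.4 to 95.6), and Tbx3, at 75.1 CPM (others 52.9 to 58). Tbx18 stood at 1.09 CPM in PA1 labelled Hoxa2-/- E9.5 replicate 5 (others 0.132 to 0.196) and at 3.16 CPM in wildtype PA2 E9.5 replicate 5 (others 0.355 to 0.794). Tbx15 stood at 3.37 CPM in wildtype PA2 E10.0 replicate 2 (others 0.157 to 0.823), and Tbx5 at 3.14 CPM in PA2 labelled Hoxa2-/- E9.0 replicate 4 (others 0.17 to 0.411), which had 30.7 CPM of Upk3b.

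The stage change (E10.5 against E9.0) differed between PA2 and PA1 by limma in 6 tests. In wildtype the differences were -2.43 for Tbx3, 1.93 for Tbx15 and -4.10 for Tbx22, and with the label Hoxa2-/- they were -1.68 for Tbx2, -1.66 for Tbx3 and -2.95 for Tbx22. Within wildtype embryos, Tbx4 was higher in PA2 in 4 of 4 at E9.5 (median log2 difference 1.29) and in PA1 in 3 of 3 at E10.5 (median -0.55). The wildtype arch difference at E10.5 was not called by limma (-0.60, adjusted p = 0.786). With the label PA2 was higher in 4 of 5 embryos at E9.5 (median 1.15) and in 2 of 3 at E10.5 (median 0.21). The difference between these 2 stages was not tested.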

How the results depend on the processing

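Counts of called member tests moved little between the arches (26, and 22 to 30 under the alternatives), over stage (17, and 15 to 20) and in the difference of the stage changes (6, and 5 to 7). Counts against the label were too small to be stable. In PA2 the single call became 0 with a filter of 5 CPM, where 24 tests remained. It became 2 with only the compared groups fitted, where Tbx3 (adjusted p = 0.038) and Tbx20 (0.043) passed at E10.5 and Tbx15 did not (0.057), and 2 without the libraries high in Upk3b, where Tbx5 at E9.5 (-0.67, adjusted p = 0.05 when rounded) joined Tbx15. In PA1 the count of 0 became 1 with a pseudocount of 5 and 1 with only the compared groups fitted. Leaving out 1 library at a time gave 23 to 27 calls between the arches, 0 to 2 for the label in PA2, 0 to 1 in PA1, 0 to 0 for the difference of the label effects, 15 to 18 over stage, 12 to 16 between adjacent stages (15 in all) and 5 to 7 for the difference of the stage changes. With the embryo as a replicate block the counts were 28, 1, 0, 0, 17, 15 and 7 in that order, and the calls this changed are given beside the results.

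Tbx20 reversed with the heart muscle term: the wildtype arch difference at E9.0 became -1.33, the PA2 difference of E10.5 against E9.0 became 0.91 in wildtype and 1.29 with the label Hoxa2-/-, and that against E9.5 in wildtype PA2 became 0.42. The cause was not tested. Of the comparisons of 65 called member tests with the alternatives, 799 kept direction and call, 33 lost the call and 3 reversed, and of those leaving out 1 library 510 kept and 49 lost it. Median-of-ratios scaling changed no count. Depth limits Tbx5 in most groups and Tbx22 before E10.0 and in PA2, where values lie near 3 reads.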
